A study of Homo sapiens with 12 samples.

Results

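The genes described here encode plasma membrane and lysosomal carriers of amino acids and related solutes. They were chosen by symbol, as every gene in the deposited tables whose name is SLC1A, SLC3A, SLC6A, SLC7A, SLC36A, SLC38A or SLC43A followed by a number. The rule found 48 genes of 19907, of which 31 had a mean of at least 20 normalized counts over the libraries and 17 had less. MDA-MB-231 is an established human line of triple-negative breast cancer (TNBC), a form without estrogen receptor, progesterone receptor or amplified HER2, and it expresses the glucocorticoid receptor (GR). The study edited the gene of GR by CRISPR so that Ser134, a residue phosphorylated in response to stress and cytokines, became alanine, and asked how the receptor's response to TGFβ1 depends on that residue. The cells called wt-GR came through the same editing without the change, and the cells called S134A-GR carry it. Each line is 1 clone, so genotype and clone cannot be told apart. Both lines were starved for 18 h in IMEM with 1% DCC, a serum stripped of steroid hormones, and were then given vehicle or TGFβ1 at 10 ng/mL over 6 h. Each of the 4 groups (wt-GR with vehicle, wt-GR with TGFβ1, S134A-GR with vehicle, S134A-GR with TGFβ1) had 3 libraries.

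Amino acid carriers work as uniporters, exchangers or symporters. Exchangers such as LAT1 and xCT trade an internal amino acid for an external one and need a heavy chain, a glycoprotein that brings the carrier (the light chain) to the membrane, while symporters such as SNAT2 use the sodium gradient to bring in the glutamine that exchangers then trade. Carriers on the lysosome pass amino acids to the cytosol and take part in amino acid sensing by mTORC1. In breast cancer cells these genes are known for supplying glutamine, leucine, arginine and cystine.

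Values are counts of reads per gene divided by a size factor of the library (normalized counts), and the reads behind them came to 56362036 to 129832227 per library. A level of 3 reads, taken as the floor of detection, corresponded to 2.15 to 4.89 normalized counts, which covers counting error only. These totals are above the average number of reads that the study states per sample, and whether both mates of a pair were counted is not given, so that a floor of 3 may stand for fewer fragments. Nothing in the labels says that the 3 libraries of a group came from separate cultures, so p-values measure the spread between these libraries, which may be technical. Fold changes are on the scale of log2(normalized count + 1), which understates the change of genes with few reads, and a gene is said to differ where limma gave an FDR under 0.05 over the 18579 genes tested. The markers of the line were high in all libraries (VIM 419832 to 533198 normalized counts, AXL 110062 to 124924, CD44 41033 to 62473, NR3C1, the gene of GR, 8336 to 12729), and the count of NR3C1 cannot show the change of 1 residue. Estrogen receptor (ESR1) was at most 7.32 and ERBB2 7229 to 10589. Of the markers of other cell types, the leukocyte gene PTPRC was at most 9.80. The 3 fibroblast genes summed to 13.0 to 35.5 normalized counts in the wt-GR libraries and to 3.77 to 19.2 in the S134A-GR libraries. LUM was at 0 in every S134A-GR library under both treatments and at 0 to 4.44 in the wt-GR libraries. The 2 endothelial genes summed to 1471 to 1619 in wt-GR under vehicle, 1250 to 1295 in wt-GR under TGFβ1, 1092 to 1196 in S134A-GR under vehicle and 767 to 920 in S134A-GR under TGFβ1, so that every S134A-GR library was below every wt-GR library. The 4 luminal epithelial genes summed to 66504 to 70516, 76095 to 80938, 64980 to 69961 and 60387 to 69277 in the same groups. Within these lists the means in wt-GR and S134A-GR under vehicle were 1024 and 378 for EPCAM, 4158 and 837 for KRT19 and 187 and 19.0 for CDH5, without overlap, while KRT8, the most abundant luminal gene, had 63025 and 65433, CDH1 6.24 and 9.37 and PECAM1 1358 and 1141. The part of these markers in the differences between the lines was not tested.

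Per kilobase of exon, the transporter genes with the highest levels in vehicle-treated wt-GR cells were SLC1A5 at 8141 ± 149.9 normalized counts per kb (SD, n = 3) and SLC7A5 at 7409 ± 177. They encode ASCT2, which brings in glutamine in exchange for other neutral amino acids, and LAT1, the leucine carrier. SLC43A3, a carrier of purine nucleobases that bears a family name of amino acid transporters, followed at 6172 ± 125 per kb. Then came SLC38A2 at 3689.6 ± 258, SLC7A1 at 3393 ± 316, SLC6A6 at 3338 ± 326, SLC38A1 at 3127 ± 322 and SLC3A2 at 2787 ± 83.1 per kb. From SLC38A2 to SLC38A1 neighbours in this order differed by less than the larger SD of the pair. The next gene, SLC7A6, had 1029 ± 29.5 per kb, and SLC7A11, the xCT light chain, had 779.7 ± 144. These lengths are the union of all annotated exons, so a gene with long exons used by few transcripts is placed too low.

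The 8 genes with the highest levels per kb are also the 8 with a mean over 10000 normalized counts, and all of them were lower in S134A-GR than in wt-GR cells under both treatments. Over all 31 transporter genes, 18 were lower and 7 higher in S134A-GR under vehicle, where 31.8% of the 14425 genes with a mean of at least 20 were lower and 30.0% were higher. Under TGFβ1, 17 were lower and 7 higher, where 30.7% and 28.0% of all genes were. The lower share of the transporter genes was thus 58.1% under vehicle and 54.8% under TGFβ1. Among all genes with a mean of at least 10000 the lower share was 43.5% under vehicle and 43.6% under TGFβ1. The median log2 fold change of the 31 genes was −0.33 under vehicle and −0.23 under TGFβ1, and that of all genes was 0.00 and 0.01. The 7 higher genes were the same under both treatments, and the 17 lower under TGFβ1 were lower under vehicle too. A log2 change of 1 or more in size was reached by 4 genes under vehicle and 3 under TGFβ1, where 7.80% and 6.82% of all genes reached it. The 3 libraries of one line did not overlap with those of the other for 26 of the 31 genes under vehicle and 23 under TGFβ1, beside 67.2% and 65.0% of all genes. Total reads overlapped between the lines, with wt-GR vehicle replicate 1 the shallowest library.

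**Figure D1:**
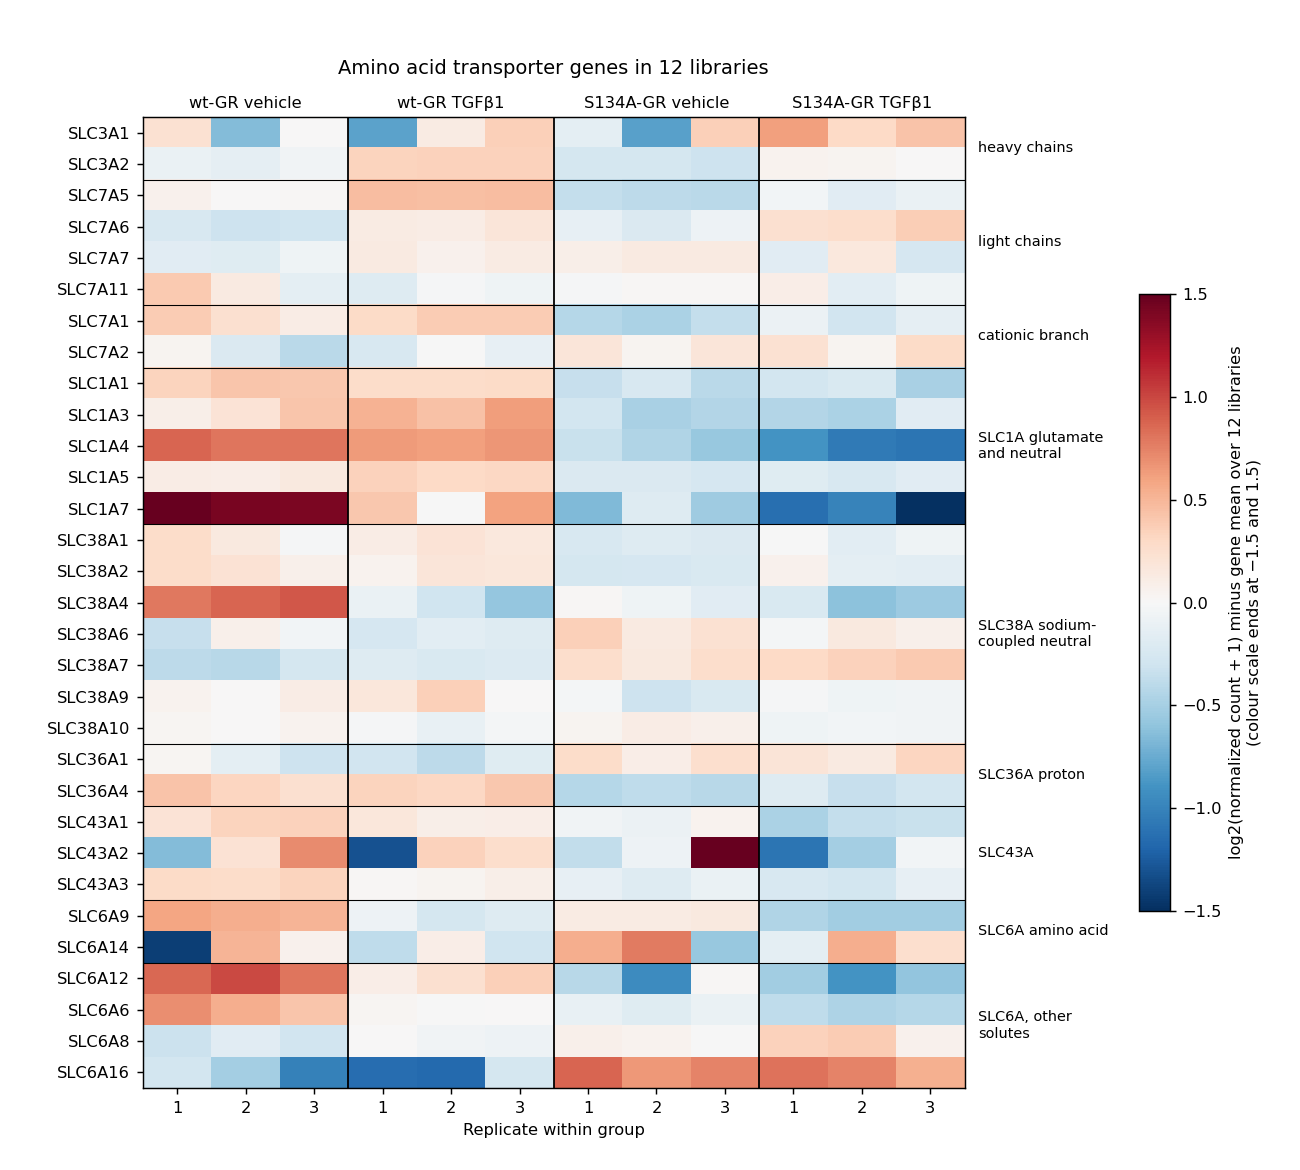
Colour gives log2(normalized count + 1) of each of the 31 transporter genes (rows, grouped by role) in each of the 12 libraries (columns, 3 replicates per group) minus the gene's mean over the libraries. The SLC1A rows are red in most wt-GR columns and blue in the S134A-GR columns, the SLC3A2, SLC7A5 and SLC7A6 rows are redder under TGFβ1 in both lines, and SLC43A2 has 1 S134A-GR vehicle library far above the rest.

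The heavy chain SLC3A2 (CD98, chr11:62856004-62888880, hg38, plus strand) had 17793, 17296 and 18357 normalized counts in vehicle-treated wt-GR cells and 23855, 24095 and 24190.3 under TGFβ1. In S134A-GR cells it had 15839, 15832 and 15259.9 under vehicle and 19729, 19621 and 19039 under TGFβ1. No 2 of the 4 groups overlapped. The line difference (the log2 fold change with S134A-GR over wt-GR) came to −0.19 (standard error 0.0319, adjusted p = 1.95e-04) under vehicle and −0.31 (standard error 0.0319, adjusted p = 2.35e-06) under TGFβ1. TGFβ1 against vehicle gave 0.43 (standard error 0.0319, adjusted p = 2.27e-07) in wt-GR and 0.32 (standard error 0.0319, adjusted p = 6.98e-06) in S134A-GR. The other heavy chain, SLC3A1, was near the lower limit of the rule with a mean of 23.2 normalized counts, did not pass in any comparison, and shares 25.4% of its 75-base stretches with another annotated gene, which makes its count uncertain.

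SLC7A5 (chr16:87830023-87869507, minus strand), the light chain that makes LAT1 with CD98, had 36257, 34678 and 34959 normalized counts in vehicle-treated wt-GR cells and 47692, 47269.5 and 47673 under TGFβ1. In S134A-GR cells the values were 26999.6, 26331 and 26237 under vehicle and 33577, 30837 and 32200.2 under TGFβ1. All 3 libraries of S134A-GR with TGFβ1 were thus below every wt-GR library with vehicle. The line difference was −0.41 (standard error 0.0344, adjusted p = 2.30e-07) under vehicle and −0.56 (standard error 0.0344, adjusted p = 1.23e-08) under TGFβ1, and the TGFβ1 response was 0.43 (standard error 0.0344, adjusted p = 5.38e-07) in wt-GR and 0.28 (standard error 0.0344, adjusted p = 4.68e-05) in S134A-GR. SLC7A6 (chr16:68264516-68301823, plus strand), the light chain that exports arginine in exchange for glutamine, had 8069, 7660.2 and 7704 under vehicle and 10348, 10225 and 10777 under TGFβ1 in wt-GR cells. It had 8693, 8158 and 8985 and 11217, 11373 and 12253 in S134A-GR cells, so that it was slightly higher in that line. Its line difference was 0.14 (adjusted p = 0.0171) under vehicle and 0.15 (adjusted p = 0.0116) under TGFβ1, and its TGFβ1 response was 0.42 (standard error 0.0447, adjusted p = 9.53e-06) and 0.43 (standard error 0.0447, adjusted p = 8.88e-06). The call of SLC7A6 under vehicle was lost when wt-GR replicate 2 or S134A-GR replicate 1 or 3 was left out, and that under TGFβ1 when S134A-GR replicate 3 was. SLC7A6 overlaps SLC7A6OS on the opposite strand, and whether counting used strand is not given in the sources used here.

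SLC7A11 (chr4:138164097-138242349, minus strand) encodes xCT, the light chain that takes up cystine for glutathione synthesis in exchange for glutamate. It had 8932, 7475 and 6152 normalized counts in vehicle-treated wt-GR cells and 5959, 6757 and 6538 under TGFβ1, against 6721, 6902 and 6922 and 7279, 6094 and 6501 in S134A-GR cells. All 4 groups overlapped. Its line difference was −0.12 (95% interval −0.34 to 0.10, adjusted p = 0.359) under vehicle and 0.04 (95% interval −0.18 to 0.26, adjusted p = 0.758) under TGFβ1, and its TGFβ1 response was −0.21 (95% interval −0.43 to 0.00, adjusted p = 0.167) in wt-GR and −0.05 (95% interval −0.27 to 0.17, adjusted p = 0.800) in S134A-GR. The spread among the wt-GR vehicle libraries was the widest, and without replicate 3 of that group the line difference under vehicle was −0.25 (adjusted p = 0.0156) and the TGFβ1 response in wt-GR −0.35 (adjusted p = 0.00556). SLC7A7, the y+LAT1 light chain, had group means of 167, 198, 199.7 and 174 normalized counts (wt-GR with vehicle and TGFβ1, then S134A-GR) and passed in no comparison, except for the line difference under TGFβ1 without S134A-GR TGFβ1 replicate 2 (−0.32, adjusted p = 0.0478).

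**Figure D2:**
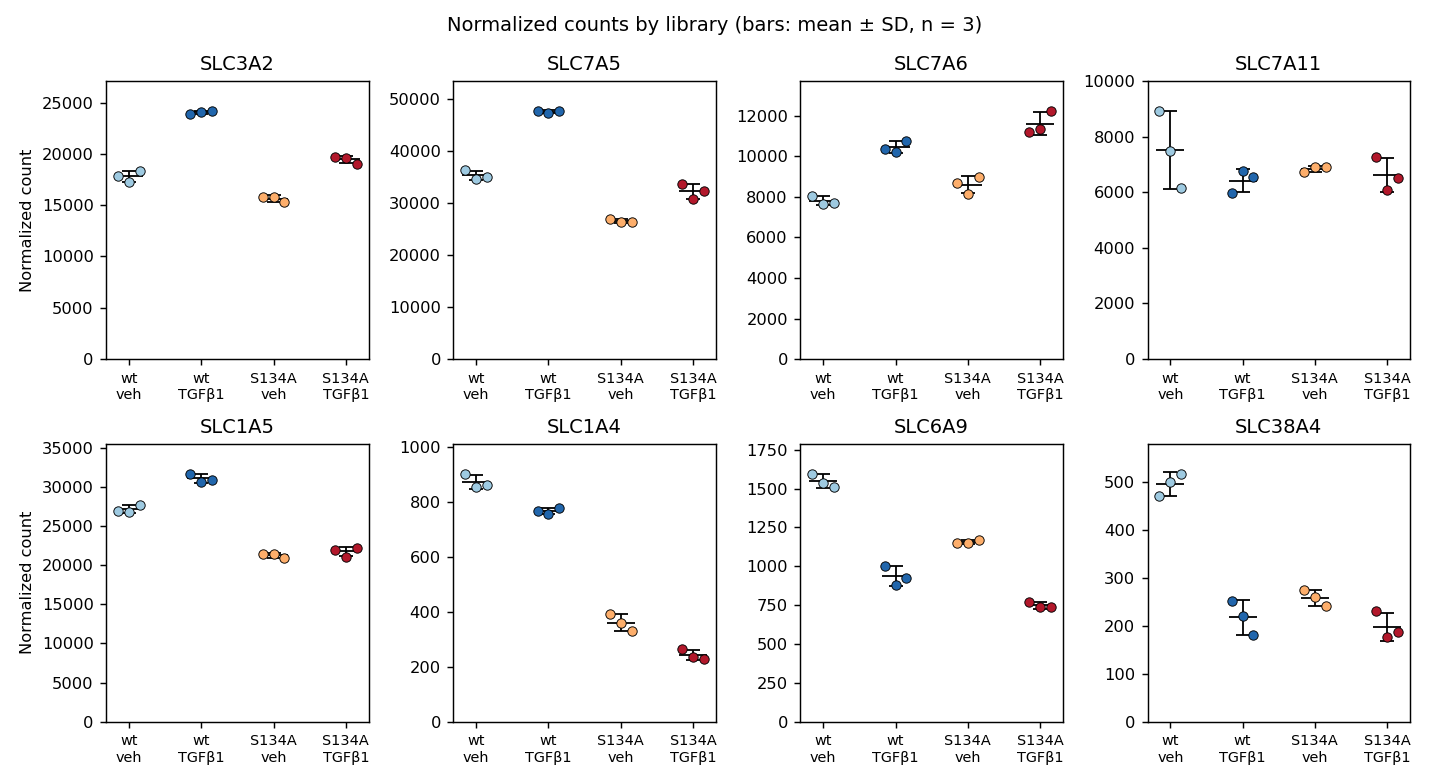
Each panel plots the normalized count of 1 gene (vertical axis, from 0) in the 3 libraries of each group (points), with the mean and SD (bars). SLC3A2, SLC7A5 and SLC7A6 rise under TGFβ1 in both lines, SLC7A11 overlaps in all groups, SLC1A5 and SLC1A4 are lower in S134A-GR, SLC6A9 falls under TGFβ1 in both lines and SLC38A4 is highest in vehicle-treated wt-GR cells.

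In the cationic branch of the SLC7A family, which works without a heavy chain, SLC7A1 (chr13:29509414-29595688, minus strand) encodes CAT1, the main arginine and lysine carrier of growing cells. Its normalized counts were 28628, 25845 and 23783 in vehicle-treated wt-GR cells, 26876, 28576 and 28517 under TGFβ1, 16279.9, 15788 and 17087 in vehicle-treated S134A-GR cells and 20690.5, 17999 and 19919 under TGFβ1. Every S134A-GR library was below every wt-GR library. The line difference was −0.67 (standard error 0.0633, adjusted p = 8.16e-07) under vehicle and −0.52 (standard error 0.0633, adjusted p = 9.93e-06) under TGFβ1. TGFβ1 raised SLC7A1 by 0.25 (adjusted p = 0.0123) in S134A-GR, a call lost without vehicle replicate 2 or TGFβ1 replicate 1 of that line, and gave 0.11 (adjusted p = 0.285) in wt-GR. The genes around it were also lower in S134A-GR, with a median of −0.53 under vehicle over the 50 nearest genes with a mean of at least 20 (25 on each side), 38 of them lower at an FDR under 0.05. SLC7A2, which encodes the cytokine-inducible carrier CAT2, was higher in S134A-GR, with 0.33 (adjusted p = 0.0150) under vehicle and 0.30 (adjusted p = 0.0237) under TGFβ1. The call of SLC7A2 was lost without wt-GR replicate 3 or S134A-GR replicate 1 or 3 under either treatment, and under TGFβ1 also without wt-GR replicate 1, and over the 21 alternatives the log2 fold change lay between 0.22 and 0.44 under vehicle and between 0.25 and 0.38 under TGFβ1.

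The 5 measured SLC1A genes were all lower in S134A-GR under both treatments, with a median log2 fold change of −0.71 under vehicle and −0.89 under TGFβ1. SLC1A5 (chr19:46774883-46788594, minus strand) had 26899.7, 26782 and 27700.0 normalized counts in vehicle-treated wt-GR cells and 31703, 30639.9 and 30936 under TGFβ1, against 21419.6, 21429.8 and 20899 and 21974, 21085 and 22214 in S134A-GR cells. The lines differed by −0.35 (standard error 0.0312, adjusted p = 4.22e-07) under vehicle and −0.52 (standard error 0.0312, adjusted p = 1.14e-08) under TGFβ1. TGFβ1 raised it by 0.20 (adjusted p = 3.89e-04) in wt-GR and gave 0.03 (adjusted p = 0.528) in S134A-GR, and the difference between these responses was −0.16 (95% interval −0.26 to −0.07, adjusted p = 0.216). SLC1A4 (chr2:64988477-65023865, plus strand) encodes ASCT1, which exchanges alanine, serine and cysteine, and its line difference under vehicle came next after those of SLC1A7, SLC6A16 and SLC6A12, whose counts are far lower. It had 903, 855 and 861 in vehicle-treated wt-GR cells and 765, 755 and 778 under TGFβ1, against 391, 358 and 331 and 263, 236 and 229.6 in S134A-GR cells. None of the groups overlapped. Its line difference came to −1.28 (standard error 0.0830, adjusted p = 2.01e-08) under vehicle and −1.66 (standard error 0.0830, adjusted p = 1.81e-09) under TGFβ1, and TGFβ1 lowered SLC1A4 in the S134A-GR line, −0.56 (standard error 0.0830, adjusted p = 2.32e-04), with −0.19 (adjusted p = 0.134) in wt-GR. The 50 genes nearest to SLC1A4 had a median of −0.58 under vehicle and 42 of them were lower.

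The glutamate and aspartate carriers SLC1A1 (EAAT3, chr9:4490468-4587469, plus strand) and SLC1A3 (EAAT1, chr5:36596588-36688334, plus strand) differed in the same direction. SLC1A1 had 940.2, 995 and 989 normalized counts in wt-GR and 587, 635 and 563 in vehicle-treated S134A-GR cells, and its line difference was −0.71 (standard error 0.0762, adjusted p = 2.63e-06) under vehicle and −0.61 (standard error 0.0762, adjusted p = 1.31e-05) under TGFβ1. The 34 genes nearest to SLC1A1, at the end of its chromosome, had a median of −0.02 under vehicle. SLC1A3 had 406, 443 and 511 in wt-GR and 315, 272 and 282 in vehicle-treated S134A-GR cells, then 548, 518 and 591 and 282, 275 and 341 under TGFβ1. This gave a line difference of −0.64 (standard error 0.113, adjusted p = 2.64e-04) under vehicle and −0.89 (standard error 0.113, adjusted p = 1.60e-05) under TGFβ1. SLC1A7 (chr1:53087179-53142638, minus strand), the glutamate carrier EAAT5 known from the retina, had the fewest normalized counts of the 5, with 196, 179 and 177 in vehicle-treated wt-GR cells. Per kb of exon SLC1A3 was lower in that group, with a mean of 21.3 beside 33.9 for SLC1A7. The counts of SLC1A7 were 87.8, 65.9 and 101 in wt-GR with TGFβ1, 41.5, 57.8 and 45.4 in S134A-GR with vehicle and 29.5, 32.4 and 17.2 in S134A-GR with TGFβ1, in 4 groups that did not overlap. S134A-GR was lower by −1.92 (standard error 0.247, adjusted p = 1.54e-05) under vehicle and −1.68 (standard error 0.247, adjusted p = 5.94e-05) under TGFβ1, and TGFβ1 lowered SLC1A7 by −1.13 (standard error 0.247, adjusted p = 0.00459) in wt-GR. In S134A-GR the TGFβ1 response of SLC1A7 was −0.88 (adjusted p = 0.0222), a call lost when vehicle replicate 2 or TGFβ1 replicate 3 of that line was left out and when only that line was fitted.

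The sodium-coupled SLC38A genes were split. SLC38A2 (chr12:46358188-46372773, minus strand), which encodes SNAT2, the carrier that cells raise when amino acids are short, had 25401, 24498 and 22148 normalized counts in vehicle-treated wt-GR cells and 21794, 23964 and 23751 under TGFβ1. It had 17594, 17736 and 18006 and 22039, 19019 and 18805 in S134A-GR cells, with an overlap of the lines under TGFβ1. S134A-GR against wt-GR gave −0.43 (standard error 0.0620, adjusted p = 4.32e-05) under vehicle and −0.22 (adjusted p = 0.00940) under TGFβ1, and its TGFβ1 response was −0.05 (adjusted p = 0.637) in wt-GR and 0.16 (adjusted p = 0.0869) in S134A-GR. SLC38A1 (SNAT1), its neighbour on chromosome 12, was lower as well, with −0.35 (adjusted p = 2.48e-04) under vehicle and −0.23 (adjusted p = 0.00533) under TGFβ1. The 50 genes nearest to SLC38A2 had a median of −0.09 under vehicle. SLC38A4 (chr12:46764761-46832408, minus strand), a neutral amino acid carrier known from liver and placenta that lies beside them, had 469, 499 and 517 in vehicle-treated wt-GR cells and 252, 219.7 and 180.3 under TGFβ1. Its counts in S134A-GR cells were 274, 259.5 and 241 under vehicle and 231, 176 and 186 under TGFβ1, and the wt-GR vehicle libraries stood far above all others. TGFβ1 lowered SLC38A4 in wt-GR, −1.20 (standard error 0.135, adjusted p = 1.69e-05), and gave −0.39 (adjusted p = 0.0604) in S134A-GR, which DESeq2 passed (adjusted p = 0.0299). The line difference was −0.94 (standard error 0.135, adjusted p = 4.48e-05) under vehicle and −0.13 (adjusted p = 0.454) under TGFβ1. The difference between its TGFβ1 responses, S134A-GR minus wt-GR, was 0.81 (95% interval 0.39 to 1.22, adjusted p = 0.124) by limma and 0.81 (adjusted p = 0.0061) by DESeq2, so its call depends on the tool.

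On the other side, SLC38A7 (chr16:58665109-58684770, minus strand), the lysosomal glutamine and asparagine carrier, had 2309, 2270.2 and 2521 normalized counts in wt-GR and 3625, 3364 and 3629 in vehicle-treated S134A-GR cells. It is named here after its values were seen, as the gene with the largest difference after SLC6A16 among those higher in S134A-GR. For SLC38A7 the line difference was 0.58 (adjusted p = 2.33e-07) under vehicle and 0.56 (adjusted p = 3.80e-07) under TGFβ1, and the 50 genes nearest to it had a median of 0.24 under vehicle. SLC38A6 was higher in S134A-GR too, with 0.34 under vehicle and 0.27 under TGFβ1, and SLC38A9, the lysosomal arginine sensor of mTORC1, was lower with −0.24 and −0.23. Under vehicle the call of SLC38A6 was lost in 2 of 21 alternatives and that of SLC38A9 in 4, all with 1 library left out. Under TGFβ1 the call of SLC38A6 was lost in 8, among them edgeR and a pseudocount of 16, and that of SLC38A9 in 10, among them the replicate block, the fit of only the groups compared and TMM scaling. SLC38A10 did not pass between the lines, with 0.05 (95% interval −0.03 to 0.12, adjusted p = 0.295) under vehicle.

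Of the SLC36A genes, SLC36A4 (chr11:93144174-93197991, minus strand) had 2022, 1887 and 1770.0 normalized counts in wt-GR and 1115, 1157 and 1124 in vehicle-treated S134A-GR cells. Under TGFβ1 it had 1887, 1865 and 1989 in wt-GR and 1319, 1179.5 and 1245 in S134A-GR. The lines did not overlap. The difference of −0.74 (standard error 0.0598, adjusted p = 1.74e-07) under vehicle and −0.62 (standard error 0.0598, adjusted p = 1.12e-06) under TGFβ1 was close to the median of the 50 genes nearest to it, −0.65 under vehicle and −0.68 under TGFβ1. SLC36A1, the lysosomal carrier PAT1, was higher in S134A-GR with 0.34 and 0.50. In the SLC43A family, SLC43A1, the leucine carrier LAT3, was lower in S134A-GR with −0.33 under vehicle and −0.51 under TGFβ1, and TGFβ1 lowered it in S134A-GR from 709 ± 35.0 to 555 ± 28.3 normalized counts (SD, n = 3), −0.35 (adjusted p = 0.00237). SLC43A3 was lower with −0.43 and −0.26, but 21.8% of its 75-base stretches occur in an overlapping readthrough gene, so its count is uncertain. The 50 genes nearest to SLC43A1 and to SLC43A3 on chromosome 11 each had a median of −0.33 under vehicle. SLC43A2 had 17.9, 22.3 and 139 normalized counts in vehicle-treated S134A-GR cells and 8.89 to 39.0 in the other libraries, and passed in no comparison by limma. DESeq2, run as an alternative, passed its TGFβ1 response in S134A-GR at −1.85 (adjusted p = 0.0233).

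**Figure D3:**
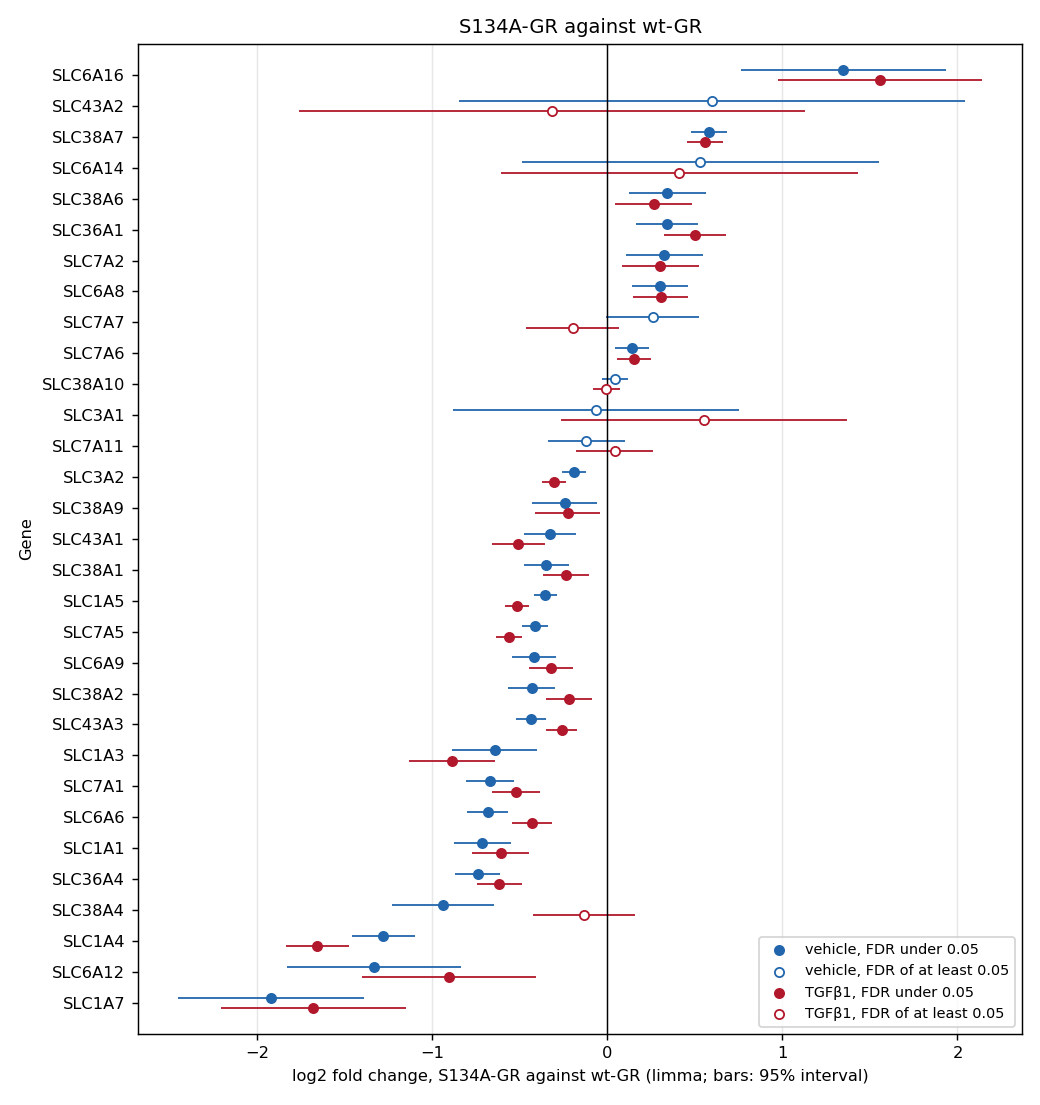
Points give the line difference (log2 fold change, S134A-GR over wt-GR) for each of the 31 transporter genes (vertical axis, ordered by the vehicle value) under vehicle (blue) and TGFβ1 (red), bars the 95% interval, and filled points an FDR under 0.05. SLC1A7, SLC6A12, SLC1A4 and SLC38A4 have the lowest vehicle values and SLC6A16 the highest.

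Only SLC6A9 and SLC6A14 of the SLC6A amino acid carriers reached a mean of 20. SLC6A9 (chr1:43991500-44031467, minus strand), the glycine carrier GLYT1, had 1597, 1539 and 1508 normalized counts in vehicle-treated wt-GR cells and 1004, 880.2 and 924 under TGFβ1. It had 1152, 1151 and 1171 and 773, 736 and 738 in S134A-GR cells, and no groups overlapped. TGFβ1 lowered it by −0.73 (standard error 0.0591, adjusted p = 6.19e-07) in wt-GR and −0.63 (standard error 0.0591, adjusted p = 3.28e-06) in S134A-GR, and the line difference was −0.42 (adjusted p = 3.71e-05) under vehicle and −0.32 (adjusted p = 4.32e-04) under TGFβ1. The difference between its TGFβ1 responses was 0.10 (95% interval −0.08 to 0.28, adjusted p = 0.745). SLC6A14 was at the edge of the rule, with a mean of 20.6 normalized counts, just above SLC6A13 at 17.9, the highest of those below 20.

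The rule by symbol also took in SLC6A genes whose carriers move other solutes. SLC6A6 (chr3:14402576-14489349, plus strand), the taurine carrier, had 30352, 27327 and 24978 normalized counts in vehicle-treated wt-GR cells and 19186, 18699.8 and 18799 under TGFβ1, against 17327, 16548 and 17497 and 14442, 13686 and 13981 in S134A-GR cells. Both the line and TGFβ1 separated its libraries without overlap. Its line difference was −0.68 (standard error 0.0543, adjusted p = 1.50e-07) under vehicle and −0.43 (adjusted p = 1.45e-05) under TGFβ1, and TGFβ1 lowered it by −0.54 (standard error 0.0543, adjusted p = 5.44e-06) in wt-GR and −0.29 (adjusted p = 0.00179) in S134A-GR. SLC6A12 (chr12:190077-214570, minus strand), the betaine carrier that cells use against osmotic stress, had 116, 127 and 111 in wt-GR and 47.1, 32.4 and 64.1 in vehicle-treated S134A-GR cells, a line difference of −1.33 (standard error 0.231, adjusted p = 2.32e-04), and the line difference under TGFβ1 was −0.90 (adjusted p = 0.00480). Its TGFβ1 response in wt-GR was −0.65 (adjusted p = 0.0616) by limma and passed by edgeR (adjusted p = 0.0432) and DESeq2 (adjusted p = 0.0267). SLC6A16 (chr19:49289638-49325215, minus strand), an orphan member of the family, was higher in S134A-GR, with 83.9, 72.0 and 76.6 against 37.5, 31.7 and 22.1 under vehicle, 1.35 (standard error 0.272, adjusted p = 7.78e-04). Under TGFβ1 it had 80.8, 76.9 and 66.5 in S134A-GR and 20, 19.8 and 37.7 in wt-GR cells, a line difference of 1.56 (standard error 0.272, adjusted p = 2.62e-04). The 50 genes nearest to SLC6A16 had a median of 0.19 under vehicle. The creatine carrier SLC6A8 was higher in S134A-GR with 0.30 under vehicle and 0.31 under TGFβ1, and 3.68% of its 75-base stretches occur in copies elsewhere.

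**Figure D4:**
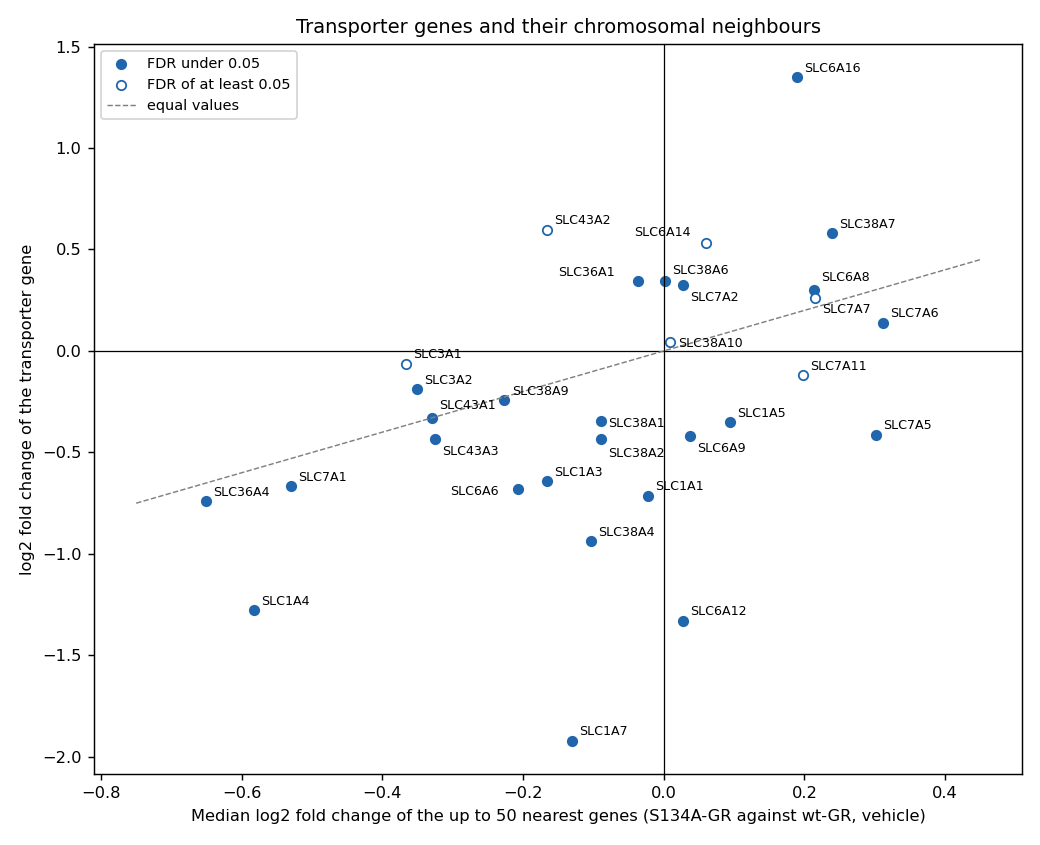
Each point is 1 of the 31 transporter genes, with the median line difference (log2 fold change, S134A-GR over wt-GR) under vehicle over the up to 50 genes nearest to it on the chromosome (horizontal axis) and its own log2 fold change (vertical axis), and the dashed line marks equal values. SLC36A4, SLC7A1, SLC43A1 and SLC38A9 lie near that line, while SLC1A7, SLC6A12 and SLC1A1 are far below it and SLC7A5 is lower in a stretch of genes that were mostly higher.

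Line differences were thus close to those of the surrounding genes for some transporter genes and far from them for others. SLC7A5 differed from its surroundings in direction, at −0.41 under vehicle beside a median of 0.30 over its 50 nearest genes, 39 of which were higher in S134A-GR and 1 lower. SLC3A2 was lower by −0.19 beside −0.35. The part of the chromosomal surroundings in these differences was not tested.

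TGFβ1 changed fewer transporter genes than the line did. In wt-GR cells 6 rose and 5 fell, where 14.0% and 12.1% of all genes with a mean of at least 20 did, and 2 changed by a log2 of at least 1, where 1.93% of all genes did. In S134A-GR cells 4 rose and 6 fell, where 12.7% and 10.8% of all genes did, and none changed by that much, where 1.55% did. The groups did not overlap for 18 of 31 genes in wt-GR and 15 in S134A-GR, beside 40.0% and 42.3% of all genes. The median log2 fold change of the 31 genes was −0.05 in wt-GR and 0.00 in S134A-GR. SLC3A2, SLC7A5 and SLC7A6 rose in both lines, and SLC6A6, SLC6A9 and SLC1A7 fell in both. In wt-GR cells SLC1A5, SLC38A7 and SLC6A8 also passed as higher and SLC38A4 and SLC43A3 as lower. In S134A-GR cells SLC7A1 passed as higher and SLC1A4, SLC38A10 and SLC43A1 as lower. The wt-GR calls of SLC38A7 at 0.15 (adjusted p = 0.0459) and SLC6A8 at 0.22 (adjusted p = 0.0493) were near the threshold and were each lost in 10 of 21 alternatives, most of them with 1 library left out, with an adjusted p of up to 0.176 and 0.152. The call of SLC38A10 in S134A-GR at −0.13 (adjusted p = 0.0178) was lost without vehicle replicate 2 or 3 or TGFβ1 replicate 1 of that line. A call in one line without the other is not a difference between lines. The direct test of the difference between the TGFβ1 responses passed for 0 of the 31 genes by limma (9 at an unadjusted p under 0.05, lowest adjusted p = 0.124), 0 by edgeR's quasi-likelihood test and 1 by DESeq2. Among all genes with a mean of at least 20, limma's test passed for 0.208% as higher and 0.319% as lower. Without wt-GR vehicle replicate 3 it passed for SLC6A6, at 0.32 (adjusted p = 0.0292).

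**Figure D5:**
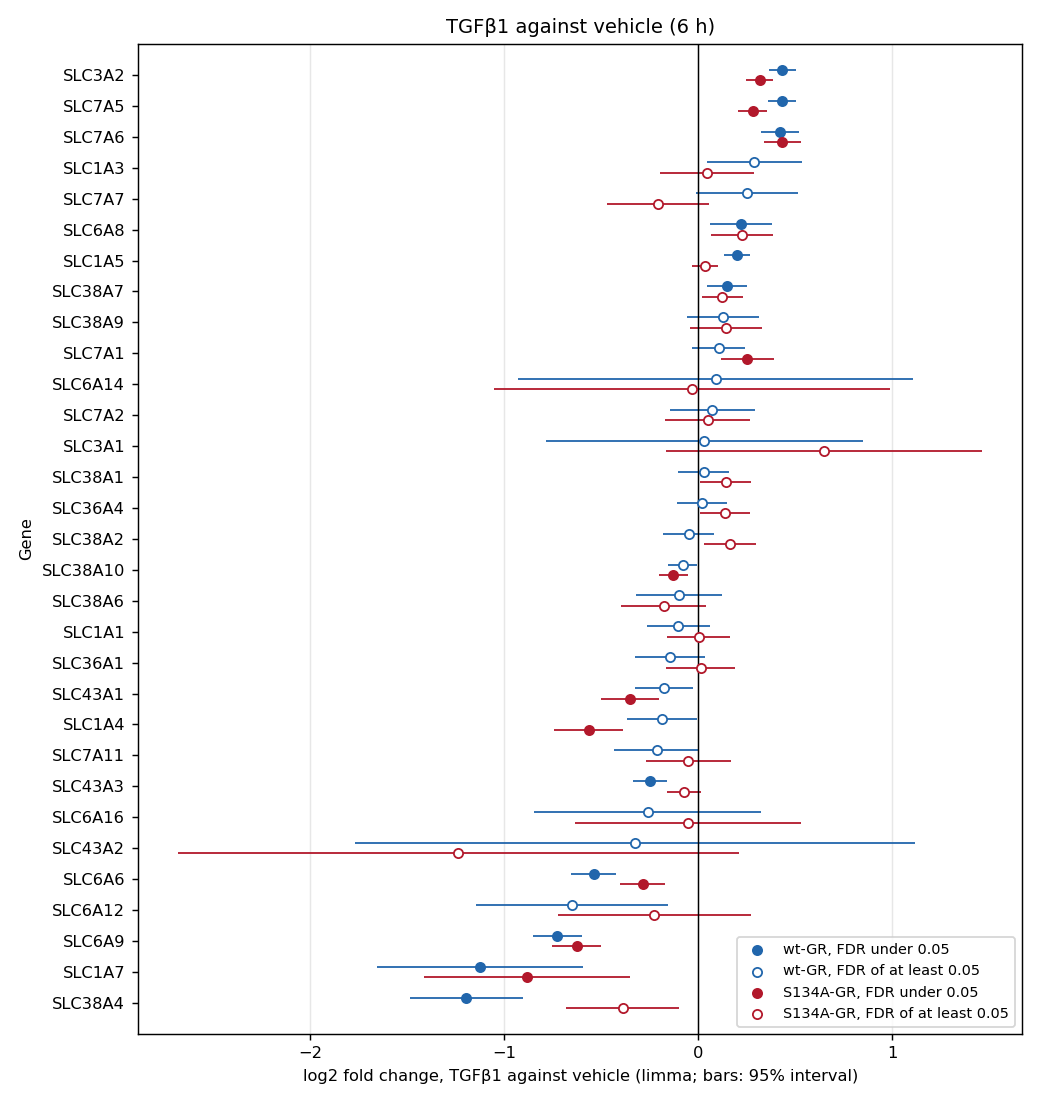
Points give the log2 fold change of TGFβ1 against vehicle for each of the 31 transporter genes (vertical axis, ordered by the wt-GR value) in wt-GR (blue) and S134A-GR (red), bars the 95% interval, and filled points an FDR under 0.05. SLC3A2, SLC7A5 and SLC7A6 stand at the top with filled points in both lines, and SLC38A4, SLC1A7 and SLC6A9 at the bottom.

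RefSeq promoter sequences (GRCh38.p14, 250 bases before to 50 after a start) were sought for the 31 genes with a mean of at least 20. Of these, 25 had a sequence, as 43 promoters. The 17 genes below that mean were left out. The antioxidant response element TGACNNNGC, which NRF2 binds, was searched on both strands and occurred in 7 of the 43 (16.3%), beside 13.3% of 35097 promoters. The 7 belong to SLC1A3, SLC1A5, SLC3A2, SLC7A1, SLC7A5, SLC7A6 and SLC7A7. Of these, SLC3A2, SLC7A5 and SLC7A6 rose under TGFβ1 in both lines, SLC1A5 passed as higher in wt-GR only and SLC7A1 in S134A-GR only. SLC1A3 and SLC7A7 passed in neither. The windows of the 3 that rose in both lines are shown as examples picked by that response. The match is in capitals (the one nearer to the start of the 2 in SLC7A6). A link between the element and the responses was not tested. The window of SLC3A2 (chr11:62881599-62881698, plus strand) ends at the start of a shorter SLC3A2 transcript inside the gene, and its match contains TGACTCA, the letters bound by AP-1. The windows of SLC7A5 (chr16:87869501-87869607, minus strand) and SLC7A6 (chr16:68264426-68264525, plus strand) lie before the first exon and reach 7 and 10 bases into the annotated 5′ UTR.
SLC3A2: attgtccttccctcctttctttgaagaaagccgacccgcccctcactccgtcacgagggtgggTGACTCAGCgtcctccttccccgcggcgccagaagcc
SLC7A5: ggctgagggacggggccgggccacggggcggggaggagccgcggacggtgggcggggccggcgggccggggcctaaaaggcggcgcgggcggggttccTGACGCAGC
SLC7A6: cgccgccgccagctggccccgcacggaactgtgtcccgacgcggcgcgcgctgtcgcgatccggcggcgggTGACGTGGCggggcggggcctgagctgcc

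The C/EBP-ATF response element TGATGNAAN, through which ATF4 raises genes when amino acids are short, occurred on either strand in 6 of the 43 promoters (14.0%), beside 3.61% of all promoters. The 6 belong to SLC1A3, SLC1A4, SLC1A5, SLC38A1, SLC3A2 and SLC7A1. The windows of SLC1A4 (chr2:64989299-64989399, plus strand) and SLC38A1 (chr12:46266512-46266616, minus strand) are shown as examples with the match in capitals, which in SLC1A4 reads on the opposite strand. Both lie inside the annotated gene, that of SLC38A1 in an intron and that of SLC1A4 just before an inner first exon.
SLC1A4: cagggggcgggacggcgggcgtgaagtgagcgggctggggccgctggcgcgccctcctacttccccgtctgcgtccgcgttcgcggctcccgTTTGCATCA
SLC38A1: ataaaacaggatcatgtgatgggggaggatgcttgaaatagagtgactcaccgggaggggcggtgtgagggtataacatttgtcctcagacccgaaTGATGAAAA
The glucocorticoid response element, searched in its full palindromic form, was in 0 of the 43 promoters and in 0.39% of all, and the SMAD element GTCTAGAC in 0 and 0.202%. A match is a run of letters, and its absence says only that these letters are not in this window.

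Other genes of amino acid metabolism were taken from lists of enzymes, other carriers, mTORC1 sensors and transcription factors. Of 24 enzymes, 13 were lower and 6 higher in S134A-GR under vehicle, and 14 and 5 under TGFβ1, where 31.8% and 30.0% of all genes were under vehicle and 30.7% and 28.0% under TGFβ1. ASS1, which makes argininosuccinate and lets cells grow without external arginine, had 997, 1148 and 1076 normalized counts in wt-GR and 122, 145 and 108 in vehicle-treated S134A-GR cells, a line difference of −3.10 (standard error 0.125, adjusted p = 2.10e-10). Asparagine synthetase (ASNS), a target of ATF4, had 5199, 5186 and 5304 in wt-GR and 2362, 2327 and 2250.4 in S134A-GR cells, a line difference of −1.18 (standard error 0.0399, adjusted p = 5.19e-11), and under TGFβ1 the difference was −1.17 (adjusted p = 5.95e-11). GLS2, an enzyme of glutamine breakdown known from liver, was higher in S134A-GR with 0.73 (adjusted p = 0.0367) under vehicle and 1.46 (adjusted p = 4.47e-04) under TGFβ1, at group means of 41.4 and 69.8 normalized counts under vehicle.

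Of 13 other amino acid carriers, 6 were lower and 1 higher in S134A-GR under vehicle, among them the lysosomal histidine and peptide carrier SLC15A3, −1.24 (standard error 0.150, adjusted p = 8.42e-06). Under TGFβ1, 7 of these carriers were lower and 0 higher. Of 20 genes of amino acid sensing by mTORC1, 3 were lower and 7 higher under vehicle, and 4 and 6 under TGFβ1. Of 8 transcription factors known for amino acid transporter genes, 3 were lower and 2 higher under vehicle, and 2 and 2 under TGFβ1. The shares of all genes given beside the enzymes hold for these lists too. ATF4 and NFE2L2 (NRF2), like the other factors below named after their values were seen because they bind the elements searched above, were lower in S134A-GR, with −0.36 (adjusted p = 5.31e-06) and −0.45 (adjusted p = 3.46e-07) under vehicle and −0.35 (adjusted p = 6.80e-06) and −0.47 (adjusted p = 2.12e-07) under TGFβ1. Neither passed for TGFβ1 in wt-GR, at 0.09 (adjusted p = 0.156) and −0.05 (adjusted p = 0.380), or in S134A-GR, at 0.09 (adjusted p = 0.140) and −0.08 (adjusted p = 0.177). CEBPB, which also binds the C/EBP-ATF element, was higher in S134A-GR, with 0.48 (adjusted p = 5.79e-04) under vehicle and 0.30 (adjusted p = 0.0175) under TGFβ1. DDIT3 and ATF3 of the same list did not pass between the lines, with 0.06 (adjusted p = 0.563) and 0.01 (adjusted p = 0.950) under vehicle. BACH1 of that list had means of 5674 (vehicle) and 6214 (TGFβ1) normalized counts in wt-GR and 4656 and 6252 in S134A-GR. In each line its TGFβ1 libraries were above all vehicle libraries. Groups were without overlap in that comparison for 40.0% of all genes in wt-GR and 42.3% in S134A-GR. Under vehicle every S134A-GR library was below every wt-GR library for BACH1, beside 67.2% of all genes without overlap. Counted by FDR over the whole list, TGFβ1 raised 2 of the 8 factors in each line and lowered 0. Of all genes with a mean of at least 20, 14.0% rose and 12.1% fell in wt-GR, and 12.7% and 10.8% in S134A-GR.

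The 17 transporter genes with a mean under 20 get no fold change. SLC6A13, SLC6A7, SLC6A4, SLC38A5 and SLC7A9 had means of 9.85 to 17.9 normalized counts and at most 36.8 in any library. SLC1A2, SLC7A8 and SLC6A11 had means of 2.47 to 6.87. SLC7A4, SLC6A20, SLC38A3, SLC38A8, SLC7A10, SLC6A15, SLC6A17 and SLC6A19 had a mean of at most 1.62, and each was at 0 in 5 to 11 libraries. SLC7A4 shares 72.6% of its 75-base stretches with another annotated gene. Of the 17, 11 had the 10 reads in all that the test asked for.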

How the data were processed

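RNA-seq of 12 MDA-MB-231 libraries (4 groups of 3, grouped by GEO's labels) was analysed. The authors used Trimmomatic on the paired 75-base reads, HISAT2 with hg38 for alignment and featureCounts for counting, and scaled each library by its size factor from DESeq2 (version 1.22.2 per the submitters' processing notes). The deposited values are thus a signal of normalized counts. The annotation, the strand setting and whether a pair counted once are not given in the sources used here. Each library's values were all (100%) multiples of 1 step, which returned the reads (56362036 to 129832227 per library) for the read filter and the count tests.

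Genes with at least 10 reads in all (18579, of which 14425 had a mean of at least 20) were fitted by limma 3.58.1 in R 4.3.3 on log2(normalized count + 1), with all 4 group means, empirical Bayes with a trend and Benjamini-Hochberg adjustment over all genes tested. For each treatment S134A-GR was set against wt-GR, for each line TGFβ1 was set against vehicle, and the 2 responses were then set against each other, 5 comparisons in all. edgeR 4.0.16 and DESeq2 1.42.0 on the recovered reads, pseudocounts of 0.5 and 16, other filters, TMM scaling, a replicate block, only the groups compared, a fold minimum and each library left out were alternatives. The exact permutation test of 1 gene cannot go below 0.1 with 3 against 3. The limma, edgeR and DESeq2 steps were tested on simulated data.

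The genes, lists, tests and alternatives were chosen with earlier results of these data known. Named genes were SLC3A2, SLC7A5, SLC7A11, SLC1A5, SLC38A2 and SLC7A1, the 8 with the largest change at an FDR under 0.05 in each line comparison and the 5 in each TGFβ1 comparison, and up to 4 genes of the other lists per line comparison. SLC7A2, SLC36A1, SLC38A1, SLC38A6, SLC38A7, SLC38A9, SLC38A10, SLC43A2, SLC43A3, SLC6A8, SLC7A7, SLC3A1, SLC6A14, ATF4, NFE2L2, CEBPB, DDIT3, ATF3 and BACH1 are named beyond this rule, with their values already known, to fill out the groups. Positions, exon lengths and shared 75-base stretches came from GENCODE 44 (hg38), promoters from RefSeq. Symbols of these families that are not among the 48 were not analysed here. A few results are not reported here.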

Additional observations from a re-analysis of the deposited data

How the results depend on the processing

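The counts of 25, 24, 11 and 10 transporter genes (the lines under vehicle, the lines under TGFβ1, TGFβ1 in wt-GR, TGFβ1 in S134A-GR) stayed within 1.5 times under every alternative run but the fold minimum, a log2 change of at least 1, which left 4, 3, 2 and 0. No call of these comparisons changed sign. With each library left out the counts were 22 to 25, 20 to 24, 9 to 13 and 7 to 12. The difference between the TGFβ1 responses moved from 0 to 1 with DESeq2's Wald test (SLC38A4) and, with each library left out, lay between 0 and 1, the 1 without wt-GR vehicle replicate 3 (SLC6A6). In 21 alternatives (without the fold minimum) 21, 20, 9 and 7 of these calls held throughout, and those lost in at least 1 were SLC7A2, SLC7A6, SLC38A6 and SLC38A9 between the lines, SLC38A7 and SLC6A8 in wt-GR and SLC1A7, SLC7A1 and SLC38A10 in S134A-GR. TGFβ1 responses that passed only in alternatives were those of SLC6A12 (in 7 alternatives), SLC1A3, SLC7A11 and SLC36A1 (1 each, without wt-GR vehicle replicate 3) in wt-GR, and of SLC6A8 (6), SLC38A4 (5), SLC38A2 (2, by DESeq2 at 0.17 and without wt-GR vehicle replicate 3 at 0.16), SLC38A1 (without that library), SLC43A3 (without S134A-GR TGFβ1 replicate 3) and SLC43A2 (DESeq2) in S134A-GR. Libraries with the same replicate number had deviations from their group means with a mean r of 0.0144 (2 of 18 pairs over 0.1). No strong shared deviation by number was thus seen, which cannot show that the libraries are unpaired. With the replicate block the counts were 25, 23, 11, 11 and 0. The depth limits the 17 genes under a mean of 20.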
